A study of Mus musculus with 8 samples.

Results

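Rpl29, Serpini2, Serinc3 and Sec16b are 4 of 11789 genes in a table of whole-pancreas RNA sequencing, chosen by their measured levels, because the 8 mice of the study fell at separate high and low levels for each of them. One group carried Pdx1-Cre together with floxed alleles of Daxx (Daxxfl/flPdx1-CreTg, called Daxx-deleted here, n = 4), and the others were wild type (n = 4). All mice were 6 weeks old, with 1 strand-specific total RNA library each. Per the series' design text each genotype had 2 females and 2 males, but no label says which library came from which sex. Pdx1-Cre acts in the pancreatic epithelium (acinar, ductal and endocrine cells), so vessels, stroma and immune cells keep Daxx. The labels give no group with the transgene alone or the floxed alleles alone, so their effects and that of Daxx loss cannot be told apart. The values that chose the genes are the levels over the 8 libraries themselves, so the split into levels is given as a description with no test. What was tested is whether the levels differed between genotypes. The p-values measure only the spread between these 8 mice.

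The 4 genes have unrelated roles. Rpl29 encodes a protein of the large ribosomal subunit, and mice that lack it are viable but small. Serpini2 encodes pancpin, a serpin made by acinar cells and secreted with the digestive enzymes, and mice that lack it lose acinar cells and become pancreatic insufficient. Serinc3 encodes a membrane protein of the serine incorporator family, whose human members SERINC3 and SERINC5 reduce the infectivity of HIV. Sec16b encodes a scaffold of endoplasmic reticulum exit sites, where COPII vesicles form to carry newly made secretory protein toward the Golgi.

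The libraries held 7705789 to 10517508 reads over the listed genes, of which 74.7% to 80.3% fell on the 20 most abundant genes. Daxx was at 23.3 to 32.5 normalized counts (reads divided by a size factor per library) in Daxx-deleted libraries and at 39.7 to 58.7 in wild-type libraries. All 10 acinar markers had values, with a summed level of 931139 to 1352939 in Daxx-deleted libraries and 1097712 to 1349571 in wild-type libraries. In whole tissue, fewer cells of a type and less RNA per cell cannot be told apart.

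Each of the 4 genes had exactly 2 low libraries and 6 high ones. Low libraries are those under the largest gap between neighbouring values after sorting, on the log2(normalized count + 1) scale. Rpl29 and Serpini2 were low in the same pair, Daxx-deleted replicate 2 and wild-type replicate 3. Serinc3 was low in Daxx-deleted replicate 3 and wild-type replicate 4. Sec16b was low in Daxx-deleted replicates 2 and 3. In all, 4 libraries were low in at least 1 of the genes, and the other 4 (Daxx-deleted replicates 1 and 4, wild-type replicates 1 and 2) were high in every one.

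**Figure D1:**
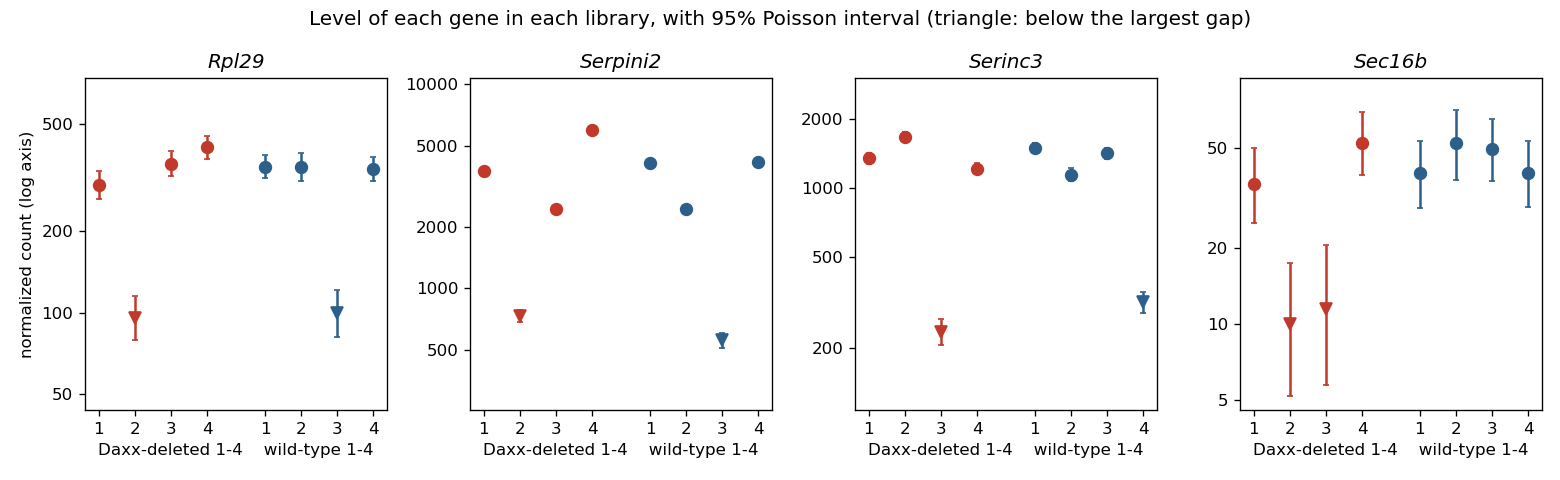
Normalized count (log axis) of each gene in the 4 Daxx-deleted libraries (red) and the 4 wild-type libraries (blue), with 95% exact Poisson intervals for counting error. Triangles mark the libraries under the largest gap, 2 for each gene, and their intervals do not reach those of the other 6 libraries. The genes were chosen for this separation, so it is a description.

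Rpl29 (ENSMUSG00000048758.14) lies on chromosome 9 from 106429454 to 106431568 on the plus strand (GRCm38, GENCODE M21). It had 297, 95.8, 356 and 409 normalized counts in Daxx-deleted replicates 1 to 4, against 347, 347, 99.3 and 340.0 in wild-type replicates 1 to 4. Daxx-deleted replicate 2 and wild-type replicate 3 were low and lay close together, while the other 6 libraries formed a compact upper level. The lowest of the 6 was 2.99-fold above the higher of the pair, a gap of 1.57 on the log2 scale that took up 75.4% of the whole range. The pair rested on 115 and 102 reads, with 95% exact Poisson intervals of 79.1 to 115 and 81 to 121 normalized counts. These intervals cover counting error only, since reads without molecular identifiers are not independent molecules. The reads of Rpl29 are uncertain, because the gene has processed copies elsewhere in the genome that are nearly identical. The annotation names 4 of them, which were not analysed here.

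Serpini2 (ENSMUSG00000034139.4) lies on chromosome 3 from 75242370 to 75270078 on the minus strand. It had 3745, 729, 2449 and 5940.3 normalized counts in Daxx-deleted replicates 1 to 4, against 4098, 2447, 557 and 4159 in wild-type replicates 1 to 4. The low pair was that of Rpl29, with a gap of 1.75 (log2) to the next library, a 3.36-fold step. Its upper level was the widest of the 4 genes, 1.28 log2 units from end to end against 0.46 for Rpl29, and the gap took 51.2% of the range. Within it Daxx-deleted replicate 3 and wild-type replicate 2 stood together at the lower end. The low libraries had 875 and 572 reads, with intervals of 681 to 779 and 512 to 605 normalized counts.

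Serinc3 (ENSMUSG00000017707.9) lies on chromosome 2 from 163623272 to 163645131 on the minus strand. It had 1350.2, 1677, 235 and 1216 normalized counts in Daxx-deleted replicates 1 to 4, against 1498, 1144, 1417 and 317 in wild-type replicates 1 to 4. Each genotype again held 1 low library and 3 high ones. The gap of 1.85 (log2), a 3.61-fold step, was the largest of the 4 genes. The low libraries had 226 and 358 reads, with intervals of 206 to 268 and 285 to 352 normalized counts, which do not overlap.

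Sec16b (ENSMUSG00000026589.14) lies on chromosome 1 from 157506728 to 157568425 on the plus strand. It had 36.1, 10, 11.5 and 52.5 normalized counts in Daxx-deleted replicates 1 to 4, against 39.7, 52.2, 49.7 and 39.8 in wild-type replicates 1 to 4. Its low libraries were both Daxx-deleted, and the other Daxx-deleted libraries lay just under and just over the wild-type range. The gap was 1.58 (log2), a 3.15-fold step. This gene has the fewest reads, 12 and 11 in the low libraries and 35 to 51 in the others. The intervals of the low libraries were 5.17 to 17.5 and 5.72 to 20.5 normalized counts, and the lowest bound of the others was 25.2. The gene was chosen for this separation and the intervals do not allow for that choice, so this is a description.

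Per length, the median level over the 8 libraries was 2195 normalized counts per kb of annotated exon for Serpini2, 334 for Serinc3, 305 for Rpl29 and 7.35 for Sec16b. The 4 genes thus span a range of levels from an abundant secretory transcript to one near the lower end of detection.

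The 250 bases before the RefSeq start of transcription are printed for the 3 genes with an entry in the RefSeq promoter table (GRCm38.p6), to show how unlike these upstream regions are. They are chr3:75270079-75270328 on the minus strand for Serpini2, chr2:163645144-163645393 on the minus strand for Serinc3, and chr1:157506546-157506795 on the plus strand for the more upstream of 2 listed starts of Sec16b. Each reads 5′ to 3′. Capitals mark TATAAA, the GC box letters GGGCGG and the E-box letters CANNTG, the last being recognised by basic helix-loop-helix factors such as the acinar factor Ptf1a, all searched on both strands with no overlap found.
Serpini2: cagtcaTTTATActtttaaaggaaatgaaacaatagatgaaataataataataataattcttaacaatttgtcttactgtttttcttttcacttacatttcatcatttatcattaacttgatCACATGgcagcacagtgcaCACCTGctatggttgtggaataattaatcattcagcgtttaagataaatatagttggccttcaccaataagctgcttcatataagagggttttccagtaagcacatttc
Serinc3: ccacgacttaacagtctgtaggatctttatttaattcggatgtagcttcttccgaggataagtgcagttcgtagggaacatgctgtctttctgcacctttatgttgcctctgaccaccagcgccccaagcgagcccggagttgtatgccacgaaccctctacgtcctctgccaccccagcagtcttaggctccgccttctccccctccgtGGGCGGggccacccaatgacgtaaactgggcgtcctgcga
Sec16b: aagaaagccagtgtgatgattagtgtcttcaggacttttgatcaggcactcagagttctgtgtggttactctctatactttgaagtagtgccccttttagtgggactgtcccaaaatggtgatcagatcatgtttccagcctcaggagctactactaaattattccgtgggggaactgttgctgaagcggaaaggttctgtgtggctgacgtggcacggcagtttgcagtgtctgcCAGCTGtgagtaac
The Serpini2 window had 30.4% G and C, with 1 TATAAA, on the opposite strand near the far end, and 2 E-boxes. The Serinc3 window had 56% G and C, with 1 GGGCGG and neither of the others. Sec16b had 47.6% G and C and 1 E-box close to the RefSeq start. The GENCODE start of Sec16b, 157506728, falls within its window, so the last part of that window, the E-box included, lies inside the gene as GENCODE annotates it. Of 32841 such windows in the table, 12.4% held TATAAA, 32.7% held GGGCGG and 66.2% held CANNTG, with a median of 52.4% G and C. A match is a description of letters and not a shown binding site.

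Genotype accounted for almost none of the spread in Rpl29, Serpini2 and Serinc3, each of which was low in 1 Daxx-deleted and 1 wild-type library. Between genotypes lay 0.0023% of the sum of squares of log2 values for Rpl29, 0.0906% for Serinc3 and 0.697% for Serpini2. For Sec16b, low in 2 Daxx-deleted and 0 wild-type libraries, it was 33.8%. The median over all 10468 tested genes was 6.21%. For genes at separate levels, this share follows mostly from which genotype holds the low libraries. It thus restates the split for which these genes were chosen and is no separate evidence about genotype.

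Means for Rpl29 were 289.7 ± 137 normalized counts in Daxx-deleted and 283 ± 123 in wild-type pancreas (SD, n = 4 each). The log2 fold change of Rpl29 was 0.01 ± 0.42 (SE; 95% interval -0.90 to 0.91). Serpini2 averaged 3216 ± 2197 in Daxx-deleted and 2815 ± 1702 in wild-type pancreas, a log2 fold change of 0.19 ± 0.60 (-1.09 to 1.47). Serinc3 averaged 1119.6 ± 620.5 in Daxx-deleted and 1094 ± 539.7 in wild-type pancreas, a log2 fold change of -0.06 ± 0.54 (-1.20 to 1.08). With both genotypes spread over both levels, these intervals leave room for changes of about 1 log2 unit in either direction, and no absence of an effect is shown.

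Sec16b averaged 27.5 ± 20.5 in Daxx-deleted and 45.3 ± 6.53 in wild-type pancreas. Its log2 fold change was -1.01 ± 0.41 (-1.89 to -0.13), which rests on Daxx-deleted replicates 2 and 3: without replicate 2 it was -0.66 and without replicate 3 it was -0.72. All 4 genes had an adjusted p of 0.9997 (limma on log2 values over all tested genes, two-sided, Benjamini-Hochberg), and 0% of the 10468 genes passed 0.05. At an unadjusted limma p under 0.05 there were 302 genes, 2.88%, of which Sec16b (0.0267) was 1 and the other 3 genes were not. Sec16b was not under 0.05 with robust moderation in limma (unadjusted p = 0.0515), edgeR (0.0824) or DESeq2 (0.0674), and its log2 fold change was -0.73 in both edgeR and DESeq2. On recovered reads, edgeR's quasi-likelihood test called 0 genes and DESeq2 called 1, which was none of the 4. Before adjustment, 299 genes lay under 0.05 in edgeR and 219 in DESeq2. The exact two-sided permutation test over 70 relabellings, whose smallest possible p is 0.0286, gave 0.971 for Rpl29, 0.771 for Serpini2, 0.857 for Serinc3 and 0.171 for Sec16b. Adjusted over the 4 tests, Sec16b was at 0.686 and the others at 0.971. The genotypes overlapped in all 4 genes, where 1.87% of tested genes had none.

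**Figure D2:**
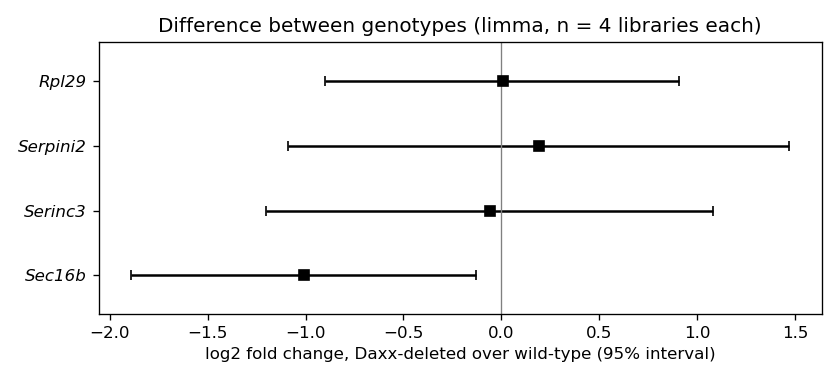
Log2 fold change of each gene, Daxx-deleted over wild-type (n = 4 libraries each), with its 95% limma interval. The intervals of Rpl29, Serpini2 and Serinc3 centre near 0 and span about 1 log2 unit to each side, and that of Sec16b runs from -1.89 to -0.13.

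Large gaps with several libraries on each side were rare in this tissue. Of the tested genes, 46 (0.439%) had a largest gap of at least 1 log2 unit with at least 2 libraries on each side, the 4 genes among them, which is the property they were chosen for. The median largest gap of a gene was 0.28. A gap as large as that of Serinc3 was seen in 33 tested genes, as that of Serpini2 in 43, as that of Sec16b in 60 and as that of Rpl29 in 61, the gene itself counted and genes with 1 library apart included. Of the 46, 8 had a mean of at least 100 normalized counts, as did 4103 of the 10468 tested genes, and Rpl29, Serpini2 and Serinc3 were 3 of these 8. Of the 46, Rpl29 and Serpini2 were the only pair to share the low libraries Daxx-deleted 2 and wild-type 3, and no other had the low libraries of Serinc3 or of Sec16b.

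**Figure D3:**
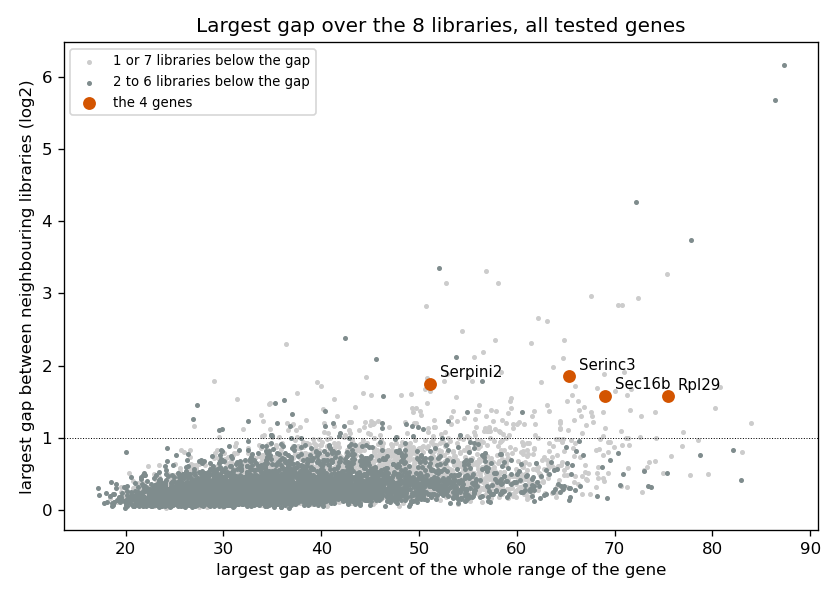
Largest gap between neighbouring libraries (log2) against its percent of the gene's whole range, 1 point for each of the 10468 tested genes, with the 4 genes in orange and a dotted line at 1 log2 unit. The 4 genes lie between 1.57 and 1.85, above nearly all other genes with 2 to 6 libraries below the gap.

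Other genes shared the low pair of Rpl29 and Serpini2, with smaller gaps. The largest gap put exactly this pair low in 42 tested genes (0.401%) and exactly this pair high in 21 (0.201%). Over the 28 possible pairs of libraries, the number of genes with that pair low ran from 19 to 246 with a median of 43.5, so this pair was not set apart by its count. Rps3a1, of the small ribosomal subunit, had the next largest gap, 0.88 (log2). It stood at 1003, 482, 1036 and 1485 normalized counts in Daxx-deleted replicates 1 to 4 and at 1005, 1390.3, 481 and 886 in wild-type replicates 1 to 4. Like Rpl29 it has near-identical copies, so its reads are uncertain. It lies 10.9 Mb from Serpini2 on chromosome 3.

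The zinc finger gene Zfp974 (gap 0.76), the Ras pathway scaffold Ksr2 (0.61) and the RNA-binding protein gene Pcbp4 (0.61) followed. Ksr2 was at only 5.83 and 5.84 normalized counts in the low pair, so its gap rests on few reads. Pcbp4 stood at 77.4, 36.7, 114 and 99.7 in Daxx-deleted replicates 1 to 4, against 56.4, 108, 30.2 and 73.5 in wild-type replicates 1 to 4. In the opposite direction Irf9, which carries interferon signals to the nucleus, was at 58.3 in Daxx-deleted replicate 2, at 53.6 in wild-type replicate 3 and at 25.8 to 34.4 in the rest. Cdc20, an activator of the anaphase-promoting complex, and D1Ertd622e were also high in this pair, with gaps of 0.61 and 0.49.

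**Figure D4:**
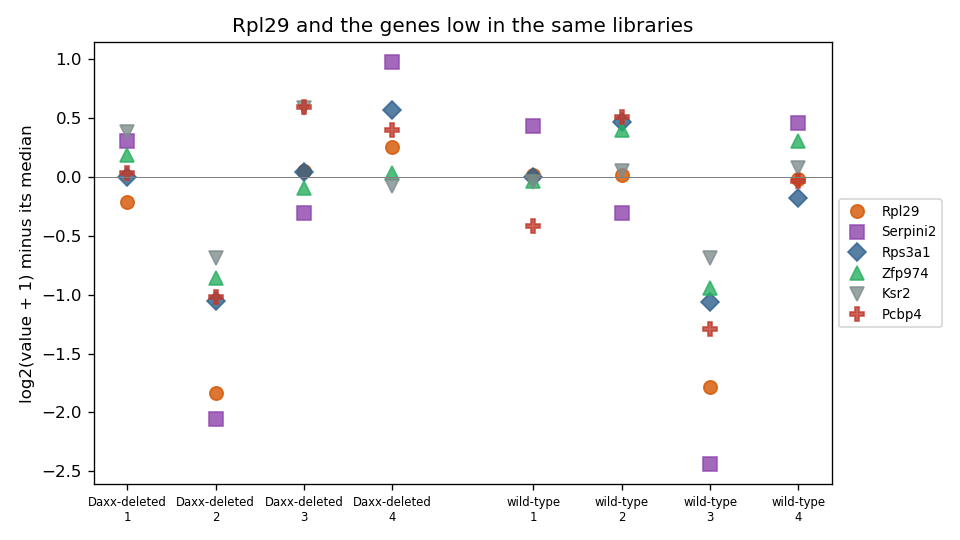
Log2(value + 1) minus the gene's median for Rpl29 and the 5 genes of its low pair with the largest gaps, in the 4 Daxx-deleted and 4 wild-type libraries. All 6 genes drop in Daxx-deleted replicate 2 and wild-type replicate 3, Serpini2 and Rpl29 the furthest.

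Fewer genes had the low pair of Serinc3: 23 (0.22%), with 9 (0.086%) high in this pair. The other genes low in it had gaps of at most 0.83 (log2). Tlr4, the lipopolysaccharide receptor, had that gap and stood at 5.21 in Daxx-deleted replicate 3, at 4.43 in wild-type replicate 4 and at 10 to 15 elsewhere. With 1 read worth 1.041 and 0.8853 normalized counts in these libraries, both low values rest on few reads. Ptges, which makes prostaglandin E, had a gap of 0.76, followed by Rassf5 (0.57), the lipid droplet gene Plin2 (0.57) and the mitochondrial creatine kinase gene Ckmt1 (0.53). The genes high in this pair had gaps of at most 0.34, led by the autophagy gene Atg101, Prelid3b and Mrpl47.

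The low pair of Sec16b was low in 37 genes (0.353%) and high in 26 (0.248%). The largest gaps among the others low in it were those of 4930415O20Rik (0.90), Mfap1b (0.79), its neighbour Hypk (0.61), Shisa4 (0.54) and Adamtsl5 (0.53). Mfap1b stood at 4.17 and 5.21 in Daxx-deleted replicates 2 and 3 and at 9.74 to 24.3 elsewhere. With 1 read worth 0.833 and 1.041 normalized counts in Daxx-deleted replicates 2 and 3, its low values rest on few reads. Nup37, of the nuclear pore, was high in the pair (gap 0.87), at 22.5 and 21.9 in Daxx-deleted replicates 2 and 3 and at 5.22 to 11.5 elsewhere. Apobec3, a cytidine deaminase that restricts retroviruses, was at 41.7 and 45.8 in these libraries and at 9.13 to 23.8 elsewhere, and Haus4 had a gap of 0.76.

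The genes next to each of the 4 on its chromosome were few, so their counts are read against the shares over all tested genes given above (0.401% with the low pair of Rpl29 and Serpini2, 0.22% with that of Serinc3 and 0.353% with that of Sec16b). Of 23 tested genes that start within 1 Mb of Rpl29, 1 had the same low pair, Pcbp4, which starts 23.8 kb downstream. The 3 genes nearest to Rpl29, Acy1, Abhd14a and Abhd14b, start closer still and had other splits, with gaps of 0.23, 0.21 and 0.39. None of the 3 tested genes near Serpini2 (Pdcd10, Serpini1 and Golim4), none of the 17 near Serinc3 (Ttpal, Pkig and Hnf4a the nearest tested) and none of the 7 near Sec16b (Cryzl2, Rasal2 and Angptl1 the nearest) shared the split of the member in either direction. With such shares, counts of 0 among so few genes say nothing particular about these neighbours. Ttpal, which starts 21 kb from Serinc3, was at 98.7 to 146 normalized counts in all 8 libraries.

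**Figure D5:**
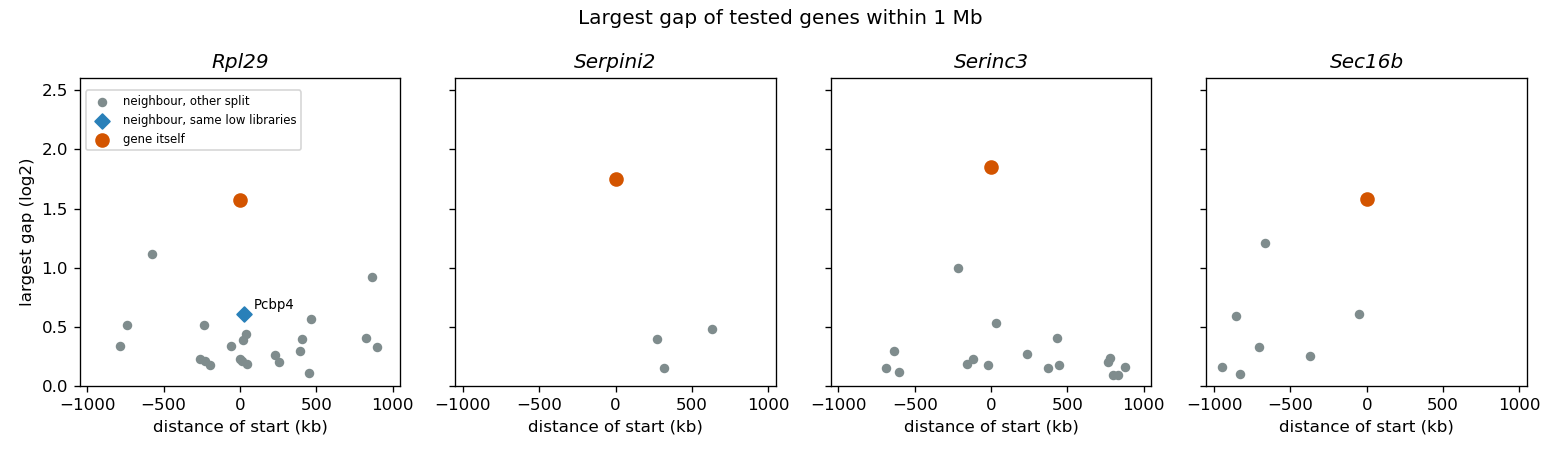
Largest gap (log2) of each tested gene within 1 Mb against the distance of its start from that of the named gene (kb, positive toward higher coordinates). Each named gene (orange) has the largest gap of its window, and Pcbp4 (diamond) alone shares the low libraries of its neighbour.

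Along whole chromosomes, a count made after the values were seen, 8 of the 62 other genes with the split of Rpl29 in either direction lay on chromosome 9 (12.9%, where 5.54% of tested genes lie). For Serpini2 it was 4 of 62 on chromosome 3 (6.45% against 4.82%), for Serinc3 7 of 31 on chromosome 2 (22.6% against 8.03%) and for Sec16b 3 of 62 on chromosome 1 (4.84% against 5.74%). The nearest of the 7 to Serinc3 was Rae1, 9.4 Mb away. These shares were not tested.

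Relatives of the 4 genes were set beside them. Of 78 tested ribosomal protein genes other than Rpl29, 2 had its low pair, which 0.401% of all tested genes had. They were Rps3a1, whose values are given above, and Rpl22, the last with a gap of 0.13 and a range of 297 to 378 normalized counts. The largest gaps of the list were those of Rps10 (1.26, with Daxx-deleted replicate 4 alone low), Rps3a1 and Rpl13a (0.63). That low value of Rps10 was 4.2 normalized counts with 1 read worth 1.05, so it rests on few reads. The median largest gap of the list was 0.14 (log2), against 0.28 over all tested genes. Serpini1, the neuroserpin gene, starts 315.2 kb from Serpini2, with Pdcd10 between them. It was at 159, 199, 136 and 149 in Daxx-deleted replicates 1 to 4 and at 177, 158, 167 and 197 in wild-type replicates 1 to 4. None of 14 tested serpin and protease inhibitor genes had the split of Serpini2 (0.401% of all tested genes), and Serpine2, Serpina3n and Serpinb9 had the largest gaps there, each setting 1 library apart.

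Serinc1 was at 261, 344, 294 and 303 in Daxx-deleted replicates 1 to 4 and at 361, 310.4, 313 and 388 in wild-type replicates 1 to 4, with no low level in the libraries where Serinc3 was low. Serinc5 ran from 61.4 to 98.3 and Serinc2 from 23.1 to 67.8. None of the 13 tested genes of the serine incorporator and serine lipid list had the split of Serinc3 (0.22% of all tested genes), with Ormdl1, Serinc2 and Ptdss2 showing the largest gaps. Sec16a, the widely expressed relative of Sec16b, was at 1189 to 1476 in Daxx-deleted libraries and at 1193 to 1419 in wild-type libraries. None of 23 tested genes of the COPII coat and exit sites had the split of Sec16b (0.353% of all tested genes), with Sar1b, Sec31b and Sec23b leading in gap. At these shares a count of 0 is near the background for lists of this size. Between genotypes no gene of these lists was called in either direction, as in the whole table. The median log2 fold change was 0.03 for ribosomal proteins, with 59 genes above 0 and 19 below, -0.04 for the serine list, -0.00 for COPII and -0.07 for serpins.

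The digestive enzyme chymotrypsin C shows separate levels too, but in other libraries. Ctrc was low in Daxx-deleted replicates 2, 3 and 4 and wild-type replicate 2, at 2723 to 4297 normalized counts, and high elsewhere, at 57356 to 76266. Both low libraries of Sec16b are among these 4, while the other 2, Daxx-deleted replicate 4 and wild-type replicate 2, had the highest Sec16b values. The low pair of Rpl29 and Serpini2 and that of Serinc3 each held 1 library low and 1 high in Ctrc. Of the 25 tested digestive enzymes, Ctrc, Try10 and Cela3a had the largest gaps, and none had the split of a member.

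Y-linked transcripts did not follow the levels of Rpl29, Serpini2 or Sec16b. The summed level of Ddx3y, Uty, Eif2s3y and Kdm5d was 0 to 1.67 normalized counts in Daxx-deleted replicates 1 and 2 and wild-type replicates 1 and 2, and 174 to 325 in the other 4 libraries. The low pair of Rpl29 and Serpini2 held 1 library of each kind, at 1.67 and 288, and so did that of Sec16b, at 1.67 and 174. Both low libraries of Serinc3, at 174 and 325, had Y-linked reads, but so did Daxx-deleted replicate 4 and wild-type replicate 3, where Serinc3 was high. The mean log2(value + 1) of these Y-linked genes was also used as a covariate, added after seeing the data. With it, none of Rpl29, Serpini2, Serinc3 and Sec16b was called between genotypes.

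No list of summed markers of other cell types had its largest gap at the low libraries of a member. Some lists did have their 2 highest or 2 lowest sums in such a pair. Many combinations of list, end and pair were looked at, so these matches were picked from many and are a description. Daxx-deleted replicate 2, low in 3 of the 4 genes, had the highest sums of adipocyte markers (7 of 9 with values, 691), myeloid markers (10 of 11, 818) and lymphoid markers (2 of 10, Jchain and Tcf7, 104). In wild-type replicate 3, the other library low in Rpl29 and Serpini2, these sums were 325, 525 and 11.7, the lowest of all 8 libraries for adipocyte and lymphoid markers. Over all libraries adipocyte sums ran from 345 to 691 in Daxx-deleted and from 325 to 522 in wild-type libraries. Myeloid sums ran from 354 to 818 in Daxx-deleted and from 433 to 683 in wild-type libraries, and lymphoid sums from 15.5 to 104 in Daxx-deleted and from 11.7 to 33.5 in wild-type libraries. The 2 highest lymphoid sums, 104 and 42.7, were in Daxx-deleted replicates 2 and 3, the low pair of Sec16b, against at most 33.5 elsewhere. The part of these cells in the levels of the 4 genes was not tested. Lep and Retn of the adipocyte list and the T cell genes Cd3e, Cd4 and Cd8a of the lymphoid list were not analysed here.

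Stromal sums were 3847 to 6085 in Daxx-deleted and 3651 to 5502 in wild-type libraries, and endothelial sums 728 to 951 in Daxx-deleted and 710.0 to 929.9 in wild-type libraries. Ductal sums were 2769 to 3101 in Daxx-deleted and 2656 to 3266 in wild-type libraries. They were lowest in the low pair of Serinc3, at 2769 in Daxx-deleted replicate 3 and 2656 in wild-type replicate 4, against 2819 to 3266 elsewhere. The step was small, and the largest gap of the ductal sums, 0.08 (log2), lay at another split. Islet sums, from 1757 to 7692 in Daxx-deleted and 2207 to 8022 in wild-type libraries, were highest in Daxx-deleted replicate 3 and wild-type replicate 1. Gut epithelial sums (2 of 7 markers) were 7.5 in Daxx-deleted replicate 2 and 17.6 to 25.7 elsewhere. Those of the low pair of Serinc3, 25 and 25.7, were the highest, against at most 18.9 in the other libraries. The part of ductal or gut cells in the level of Serinc3 was not tested. No tested marker gene of these lists had the split of a member.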

How the data were processed

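Whole pancreas of 8 mice was sequenced, 1 library per mouse. The submitters' processing notes name the aligner STAR (2.6.0b), the package DESeq2 and the build GRCm38; no source used here gives the read counter. The deposited values are a signal, read counts that the authors divided by a size factor per library. Dividing by the value of 1 read gave whole reads for 100% of values within 0.001. No pair of libraries of a genotype agreed within counting noise (chi-square per degree of freedom at least 6.81). Replicates were numbered in accession order and pair nothing.

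Genes with a mean of at least 10 entered, which left 10468. limma 3.58.1 (R 4.3.3) was fitted with trend to log2(value + 1), with genotype as the only term and Benjamini-Hochberg adjustment. The pseudocount shrinks the fold changes of low genes, and the fit compares means of log values, which for Sec16b gave a larger change than edgeR and DESeq2 did. edgeR 4.0.16 and DESeq2 1.42.0 on recovered reads, other pseudocounts (0.5 and 8), scalings and filters, robust moderation and leaving out each library were alternatives, and a Y-linked covariate was added after seeing the data. The fit was tested on simulated counts, and the gap search on made-up rows of values with a known gap. Named genes are the members, up to 5 genes with the same low libraries and 3 with the opposite split, the nearest 3 tested or split-sharing neighbours, paralogs and the 3 largest gaps of each gene list. The members, lists and tests were chosen with earlier results of these data known.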

Additional observations from a re-analysis of the deposited data

Results flagged for a closer look

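Dixon's criterion on log2 values marked, within each genotype and gene, a library that stood apart from the other 3. The genes were chosen because their libraries stand apart, so the 2 marks in 8 groups restate that choice, are a description and are no evidence. The usual rate of about 1 in 20 groups by chance does not apply to genes chosen this way. Rpl29 had such a library in wild-type replicate 3, at 99.3 normalized counts. Serinc3 had such a library in Daxx-deleted replicate 3, at 235 normalized counts. In both genes the other genotype held a low library too, Daxx-deleted replicate 2 at 95.8 and wild-type replicate 4 at 317, neither of which was marked.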

How the results depend on the processing

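Gaps were recomputed 48 times (12 settings per gene: 2 pseudocounts, TMM, equal library totals and 8 libraries left out in turn). The same libraries, apart from any left out, stayed low in all of them. With all libraries the lowest gaps were 1.49 for Rpl29, 1.39 for Serpini2 and 1.73 for Serinc3 (equal totals), and 1.18 for Sec16b (pseudocount of 8). The genes were chosen for a wide gap, so this is a description. The gaps with a library left out ran from 1.57 to 1.76 for Rpl29, 1.75 to 2.13 for Serpini2, 1.85 to 2.28 for Serinc3 and 1.58 to 1.76 for Sec16b. In all 71 refits of the fold changes no gene of the 4 passed, with a lowest adjusted p of 0.965. Genes called over the table were 1 with equal totals, robust moderation, the Y-linked covariate or DESeq2, 0 in the other settings with all libraries, and 0 to 1 with a library left out (1 without Daxx-deleted replicate 2). The sign of Serinc3 turned with equal totals (0.06), edgeR (0.04) and DESeq2 (0.04) and without Daxx-deleted replicate 3 or wild-type replicate 1, 2 or 3 (range -0.58 to 0.58), and the cause was not tested. Rpl29 turned without Daxx-deleted replicate 1, 3 or 4 or wild-type replicate 3 (-0.44 to 0.47), and Serpini2 without Daxx-deleted replicate 4 or wild-type replicate 3 (-0.47 to 0.79). Sec16b kept its sign (-1.42 to -0.66). It has no value at a minimum mean of 50. No paired analysis was possible because the labels give no replicate numbers.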

Other observations

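Beside Rpl29, Serpini2 and Serinc3, 5 genes with a mean of at least 100 normalized counts had a gap of at least 1 log2 unit with at least 2 libraries on each side: Ctrc, Reg2, Reg3a, Gm10334 and Prom1. Reg2, a lectin-like gene induced in the injured pancreas, was at 48947, 29833, 4221 and 3497 in Daxx-deleted replicates 1 to 4 and at 53273, 4248, 38026 and 18386 in wild-type replicates 1 to 4. Its low libraries, Daxx-deleted replicates 3 and 4 and wild-type replicate 2, match those of none of the 4 genes. Daxx-deleted replicate 3 and wild-type replicate 2, which stood together at the lower end of the upper Serpini2 level (2449 and 2447), also had the lowest sums of 8 acinar injury genes, 69581 and 77895, against 102774 to 181063 in the other libraries. The low pair of Serpini2 itself, Daxx-deleted replicate 2 and wild-type replicate 3, had sums of 141591 and 173073. Daxx-deleted replicate 4, lowest in Reg2 (3497), had the highest Serpini2 value, 5940.3. A link between Serpini2 and these genes was not tested.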
